A study of Homo sapiens with 18 samples.

Results

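Very long protein-coding genes were taken as all protein-coding genes whose span in the GENCODE 29 annotation, from the first to the last annotated base, was 500000 bases or more, with symbols starting ZNF or COL left out. The rule used annotation alone and found 315 genes, of 19384 protein-coding genes kept and 35579 genes matched in all, and each of the 315 was listed in the deposited tables. Their RNA was followed in U2OS cells, a line grown from a human bone tumour, through 18 PolyA libraries that fall into 6 groups of 3, and was set against 8224 short protein-coding genes, those spanning under 20000 bases. U2OS cells with mCherry-EWS-FLI1, the fusion transcription factor of Ewing sarcoma behind a red fluorescent tag, were untreated or given 7.5 µM LY2835219 for 6 h or 24 h. LY2835219, or abemaciclib, blocks CDK4 and CDK6, kinases that drive entry into S phase. The remaining groups were untreated U2OS cells with mCherry-EWS-FLI1mut, with mCherry-EWS(YS37)-FLI1, or with mCherry alone. The times are those of the sample titles and characteristics. They conflict with the labels' own treatment protocol, which has 3 and 6 hours. The sources do not say what the mut change is, whether a line was a clone or a pool, whether untreated cells received vehicle, or which of the named library kits served which library. Replicates were labelled as biological replicates of a line, so p-values measure the spread between these libraries and not between independently made lines.

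RNA polymerase II has to travel the whole span of a gene before a full-length transcript can be released, so a very long gene ties up a polymerase for hours per transcript. Release from the pause near the promoter depends on the kinase complex P-TEFb, made of CDK9 and a cyclin T, and continued travel depends on elongation factors and on avoiding early cleavage within introns. Genes of this length are known mostly from neurons, where they encode adhesion molecules, ion channels, synaptic scaffolds and kinases, and several lie at common fragile sites. The libraries here were made from mature polyadenylated RNA and quantified on spliced transcripts, so no value below is an elongation rate. Whether the counting used strand is not given, so reads of a member and of an antisense or overlapping gene cannot be told apart.

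The members spanned a median of 725787 bases. RBFOX1, a splicing regulator known from neurons, was the longest at 2473537 bases, before the contactin-associated protein gene CNTNAP2 (2304997 bases) and the receptor phosphatase gene PTPRD (2298478 bases). In all, 68 spanned 1000000 bases or more and 7 spanned 2000000 bases or more. Little of that length reaches the mature RNA. The most abundant transcript of a member had a median of 2159 bases and covered 0.289% of the gene's span, whereas the most abundant transcript of a short gene had a median of 1498 bases and covered 23.2%. That transcript did not always cross the gene either: its own genomic extent was 500000 bases or more in 132 members, from 100000 to 500000 in 103, and under 100000 in 80. Chromosome 3 held 36 members, or 3.42% of its protein-coding genes, the highest number of any chromosome.

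Many of these genes are thought of as neuronal, yet most were detected in this bone tumour line. Averaged over all 18 libraries, 212 members reached 1 TPM (a transcript's share of its library, corrected for transcript length) and 80 reached 10 TPM, and the median was 2.77 TPM, against 2.32 TPM over the short genes. After a filter on low counts 276 of the 315 were tested and 39 were not. The tested members had a median of 3.71 TPM, against 15.8 TPM for the 5322 short genes tested, so both classes differed in level as well as length. Bone and mesenchymal markers were present as labelled, with 7 of 11 at 1 TPM or more and group means that summed to 3892 to 5719 TPM. The late osteoblast genes SP7, IBSP and BGLAP and the collagen gene COL1A2 stayed under 1 TPM. Of 8 neuronal markers 7 also reached 1 TPM, with group means summing to 30.9 to 64.6 TPM. Of 5 epithelial markers 3 did (16.1 to 25.8 TPM), of 4 endothelial markers 2 (4.19 to 10.1 TPM) and of 5 blood markers 1 (2.01 to 3.52 TPM).

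Promoter sequences of 300 bases, from 250 before to 50 after an annotated RefSeq start (GRCh38.p14), were on hand for 254 of the 315 members. Among the 16 members named below for their change at 6 h, 15 had a usable window, and it held the start of the most abundant transcript for CREB5, a cyclic AMP response element-binding factor that rose, and for EGLN3, a prolyl hydroxylase that marks hypoxia-inducible factors for destruction, which fell. These 2 windows are shown for that reason. Capitals mark TATAAA, the TATA box, which was searched on both strands together with CCGGAAG, the ETS site that FLI1-type factors bind, GGAAGGAA, the GGAA repeat that EWS-FLI1 binds, and TTTCCCGC, an E2F site. CREB5 (chr7:28412268-28412567, plus strand) held 1 match, at positions 220 to 225, with 5 CpG dinucleotides and 41.7% G and C. EGLN3 (chr14:33951025-33951324, minus strand) held no match, with 27 CpG dinucleotides and 65.0% G and C.
CREB5: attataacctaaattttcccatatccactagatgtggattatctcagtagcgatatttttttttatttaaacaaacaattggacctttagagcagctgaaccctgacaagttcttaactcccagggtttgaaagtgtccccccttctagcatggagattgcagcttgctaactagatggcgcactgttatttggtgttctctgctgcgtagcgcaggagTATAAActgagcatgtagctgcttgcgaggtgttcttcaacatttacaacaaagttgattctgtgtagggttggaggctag
EGLN3: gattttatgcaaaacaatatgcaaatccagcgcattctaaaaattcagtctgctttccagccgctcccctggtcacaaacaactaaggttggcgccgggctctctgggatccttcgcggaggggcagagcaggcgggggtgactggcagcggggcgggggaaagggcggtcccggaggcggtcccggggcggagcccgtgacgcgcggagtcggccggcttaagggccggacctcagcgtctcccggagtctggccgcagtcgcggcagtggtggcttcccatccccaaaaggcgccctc
TATAAA stood in 7.87% of the 254 windows, against 9.55% of 14430 protein-coding windows and 13.3% of 5936 short-gene windows. CCGGAAG stood in 4.33% of the members' windows, against 13.7% of all and 13.2% of short-gene windows. For GGAAGGAA the shares were 3.94% in the members' windows and 3.57% in all, and for TTTCCCGC 0.787% and 2.17%. These are letter matches and say nothing of binding.

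Reads from the 315 genes made up a small and treatment-dependent share of each library. They held 0.715, 0.694 and 0.691% of the estimated counts in untreated EWS-FLI1 cells, 0.515, 0.523 and 0.519% at 6 h of LY2835219 and 0.671, 0.631 and 0.644% at 24 h. In untreated EWS-FLI1mut cells the share was 0.701, 0.692 and 0.696%, in EWS(YS37)-FLI1 cells 0.602, 0.611 and 0.601% and in mCherry cells 0.657, 0.654 and 0.634%. All 3 libraries at 6 h lay below every other library of the series, and their group means were 0.519 ± 0.00355% at 6 h, against 0.700 ± 0.0127% in EWS-FLI1 cells left untreated (SD, n = 3 each). At 24 h the mean was 0.649 ± 0.0206%. Without the 10 members with the most reads the mean was 0.333% at 6 h, against 0.483% in untreated cells. At 24 h it was 0.494%, slightly above the untreated mean. On the TPM scale the members summed to 2087 ± 17.7 at 6 h, against 2878 ± 125 in EWS-FLI1 cells left untreated. Short genes held 42.4% of counts at 6 h, against 39.0% in untreated cells. In bulk RNA, fewer cells expressing a gene and less RNA per cell cannot be told apart.

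**Figure D1:**
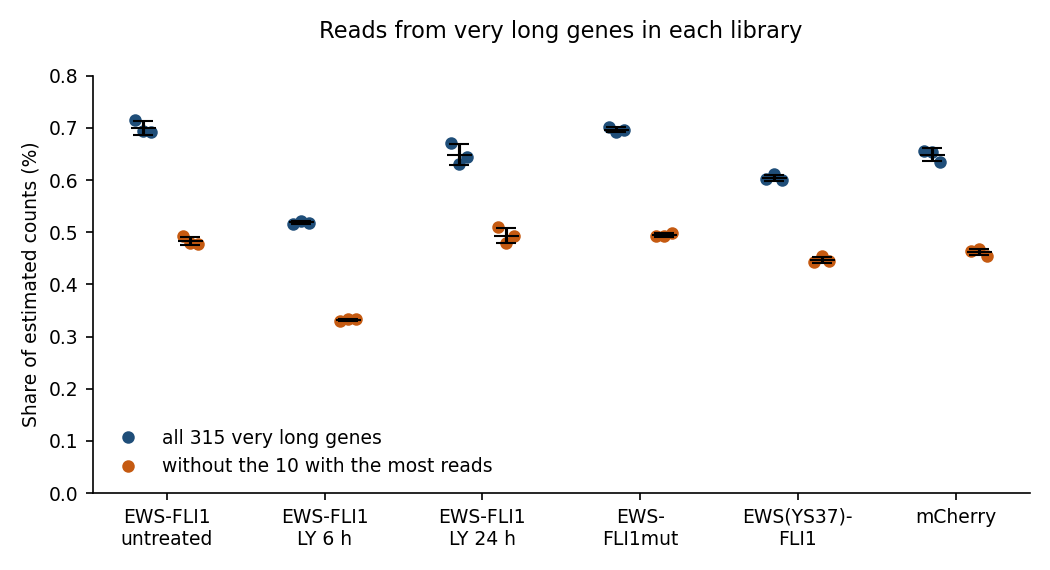
Share of each library's estimated counts (%) that came from all 315 very long genes (blue) and from those without the 10 with the most reads (orange), with 1 point per library and bars for the mean ± SD of 3 libraries. The 3 libraries at 6 h of LY2835219 sit at 0.515 to 0.523%, below all other libraries.

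Depth was even, at 16261034 to 20270637 estimated counts per library, so a gene at 1 CPM (a count relative to the library total, scaled by edgeR's TMM factors) had about as many reads in each group. FLI1 averaged 247 CPM in EWS-FLI1 cells, 642 in EWS-FLI1mut cells and 1019 in EWS(YS37)-FLI1 cells, against 0.547 CPM in mCherry cells, as the constructs require, and 406 CPM at 6 h and 236 CPM at 24 h of LY2835219. The construct's own level thus moved with treatment and between lines, and its part in the results was not tested. Mitochondrial genes held 6.14 ± 0.146% of matched counts at 6 h, against 4.80 ± 0.277% without drug, and 6.16 ± 0.380% at 24 h, and the part of this in the members' shares was not tested.

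At 6 h LY2835219 lowered very long genes far more often than it raised them. Of the 276 tested, 117 fell and 43 rose at an adjusted p under 0.05 (edgeR quasi-likelihood test, Benjamini-Hochberg over all 16786 genes tested), that is 42.4% falling and 15.6% rising. Over all genes tested 33.3% fell and 31.6% rose, 64.9% in either direction. The median log2 fold change of the members was -0.35, against 0.08 for the short genes and -0.02 over all genes tested. At least a 2-fold change was reached by 47 of those that fell and 19 of those that rose. Over all 16786 genes tested it was reached by 2405 that fell and 1496 that rose, so falls led there too. With no scaling factors, which moved the median of all genes by -0.26 on the log2 scale, 151 members fell and 24 rose. The shares of all genes called under that setting are not given, so these counts show only the dependence on scaling. In 122 members every 6 h library was below every untreated library, and in 46 every 6 h library was above, where the same held for 34.6% and 33.6% of all genes tested.

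**Figure D2:**
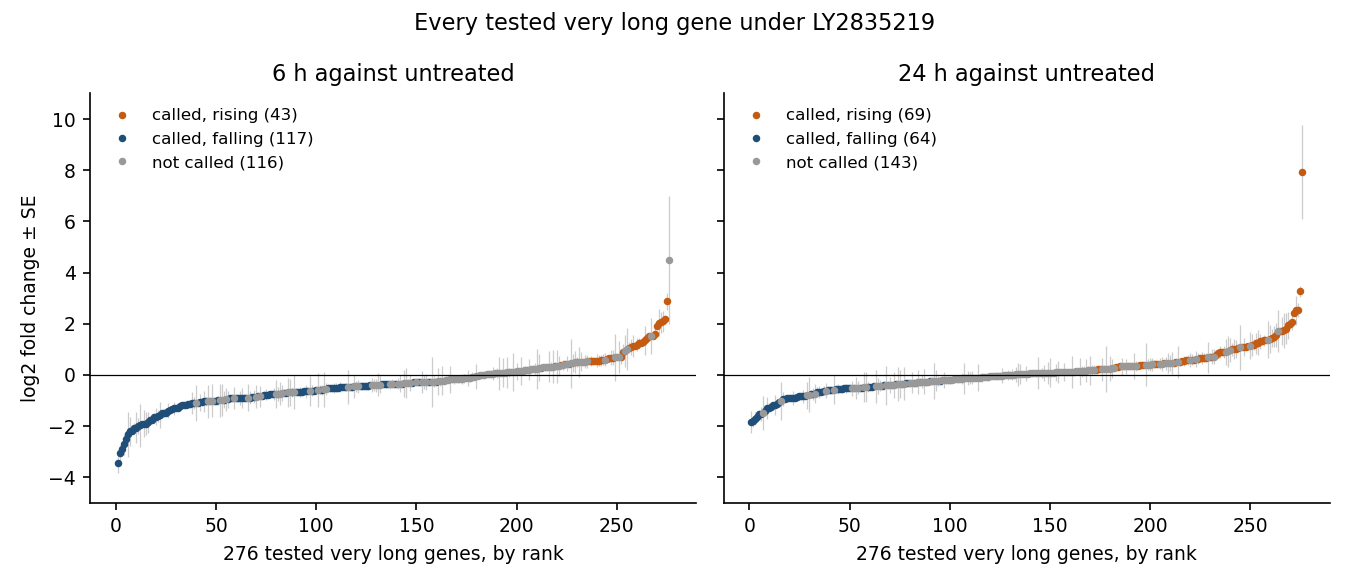
Log2 fold change ± SE of each of the 276 tested very long genes, ranked within each panel, at 6 h (left) and 24 h (right) of LY2835219 against untreated EWS-FLI1 cells. At 6 h 117 members fell and 43 rose, and at 24 h 64 fell and 69 rose; the highest point in each panel is AC058822.1, a readthrough transcript gene listed at 0 in the 3 untreated EWS-FLI1 libraries.

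The members named below for their change were picked among those whose libraries did not overlap between the groups compared, so the lack of overlap in them is part of the choice. Among the falling members were regulators of signalling and of transcription. EGLN3 (chr14:33924231-34462774, minus strand, GRCh38) had 0.673, 1.07 and 0.496 CPM in the 6 h libraries, against 6.75, 5.67 and 6.18 CPM in untreated EWS-FLI1 libraries, a log2 fold change of -3.04 ± 0.31, adjusted p = 8.74e-09 (SE and edgeR's test, here and below). The most abundant EGLN3 transcript starts within chr14:33951025-33951324, so it crosses only a small part of that span. PRKD1, encoding protein kinase D1, had 3.85, 3.41 and 0.807 CPM at 6 h, against 20.8, 17.4 and 22.0 CPM untreated (-2.89 ± 0.25, adjusted p = 3.78e-10). For PRKD1, 1 of the 6 h libraries lay well below the others. SOX6, an HMG-box transcription factor of cartilage and muscle, had 5.69, 5.37 and 5.15 CPM at 6 h, against 25.2, 36.5 and 31.3 CPM untreated (-2.52 ± 0.14, adjusted p = 2.00e-13). NFIA, a nuclear factor I transcription factor, had 9.60, 8.84 and 11.7 CPM at 6 h, against 42.8, 50.1 and 45.2 CPM untreated (-2.19 ± 0.10, adjusted p = 3.57e-15). Both kept their 6 h libraries within a narrow band. The cyclic AMP phosphodiesterase gene PDE4B had 3.67, 4.48 and 2.42 CPM at 6 h, against 15.3, 13.4 and 16.2 CPM untreated (-2.09 ± 0.22, adjusted p = 1.93e-08).

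GSE1, a coiled-coil protein of chromatin corepressor complexes and one of the 10 members with the highest TPM, fell with a narrow spread. It lies at chr16:85169525-85676204, and its libraries held 38.7, 37.8 and 36.2 CPM at 6 h, against 135, 139 and 147 CPM untreated (-1.90 ± 0.07, adjusted p = 2.74e-16). UTRN, the dystrophin relative utrophin, had 30.6, 36.8 and 36.6 CPM at 6 h, against 121, 112 and 115 CPM untreated (-1.75 ± 0.09, adjusted p = 3.86e-14). The cadherin gene CDH18 had 3.73, 3.41 and 3.10 CPM at 6 h, against 10.4, 12.8 and 11.98 CPM untreated (-1.78 ± 0.19, adjusted p = 1.73e-08). In each of these 3 genes the 6 h libraries lay close together. Transcripts that cross most of the gene held a mean of only 5.16% of GSE1 counts at 6 h and 4.81% untreated. For UTRN these shares were 88.7% at 6 h and 88.7% untreated.

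A minority rose, and some rose steeply. KCNAB1, a beta subunit of voltage-gated potassium channels that at 501438 bases lies just inside the span limit, had 10.5, 8.71 and 9.43 CPM at 6 h, against 0.716, 1.57 and 1.61 CPM untreated (2.87 ± 0.34, adjusted p = 9.39e-08). SLIT3, a secreted guidance ligand of ROBO receptors, had 48.3, 45.1 and 40.3 CPM at 6 h, against 9.91, 10.4 and 8.92 CPM untreated (2.19 ± 0.14, adjusted p = 1.61e-12). Both were several times their untreated level at 6 h. HDAC9, a class IIa histone deacetylase, had 81.5, 81.5 and 82.0 CPM at 6 h, against 24.3, 20.3 and 20.4 CPM untreated (1.91 ± 0.14, adjusted p = 1.34e-11). NRG1, the neuregulin ligand of ERBB receptors, had 21.2, 17.9 and 21.3 CPM at 6 h, against 7.10, 6.77 and 5.80 CPM untreated (1.62 ± 0.22, adjusted p = 8.79e-07). For HDAC9, transcripts that cross most of the gene held a mean of 25.1% of counts at 6 h and 20.9% untreated. For SLIT3 these shares were 97.7% at 6 h and 94.1% untreated.

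The microtubule-associated neuron navigators rose together. NAV2 had 136, 148 and 135 CPM at 6 h, against 48.3, 49.0 and 47.1 CPM untreated (1.54 ± 0.09, adjusted p = 2.39e-13), and NAV3 had 86.1, 83.5 and 82.0 CPM at 6 h, against 30.9, 28.6 and 29.1 CPM untreated (1.51 ± 0.07, adjusted p = 1.84e-14). CREB5 (chr7:28299321-28825894), whose promoter is printed above, had 294, 317 and 324 CPM at 6 h, against 129, 106 and 110.2 CPM untreated (1.44 ± 0.07, adjusted p = 2.33e-14). LSAMP, a cell-surface adhesion protein whose gene spans 1337027 bases, had 28.6, 25.1 and 23.1 CPM at 6 h, against 12.7, 9.03 and 9.56 CPM untreated (1.29 ± 0.15, adjusted p = 7.26e-08). Transcripts that cross most of the gene held a mean of only 1.78% of LSAMP counts at 6 h and 3.72% untreated. These shares were 89.5% and 88.1% for NAV2, and 75.4% and 76.9% for CREB5.

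**Figure D3:**
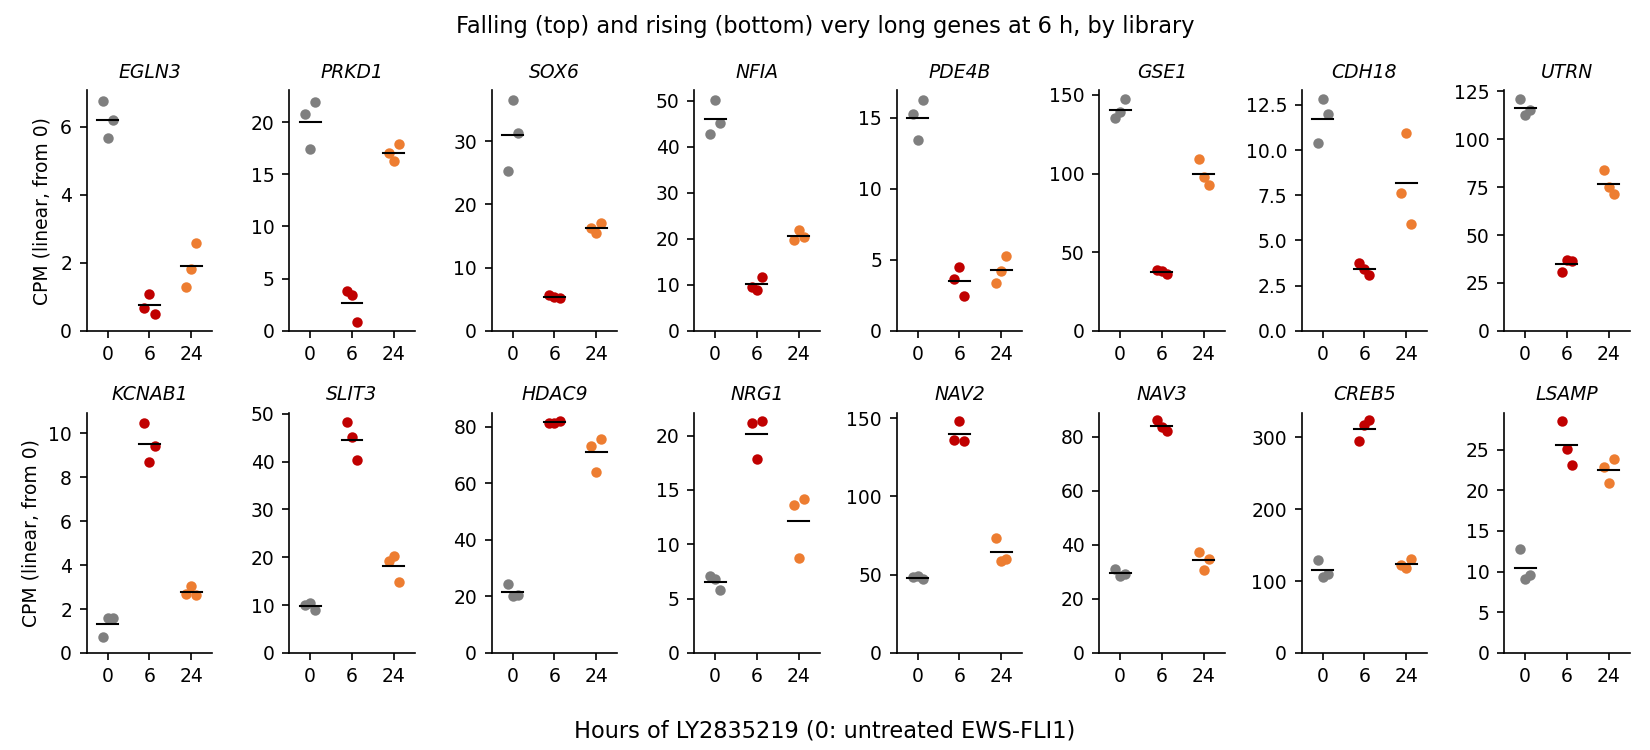
CPM (linear axis from 0) of 8 falling (top) and 8 rising (bottom) very long genes in each library of EWS-FLI1 cells untreated (0), and after 6 h and 24 h of LY2835219, with 1 point per library and a line at the mean. By 24 h PRKD1 stood near its untreated level and CREB5 and NAV3 were near theirs, while EGLN3 and PDE4B were still low and HDAC9 and LSAMP still high.

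By function, falls outnumbered rises in every role list, and each share is to be read against the 33.3% of all genes tested that fell and the 31.6% that rose. Among kinases, phosphatases and signalling proteins 21 of 37 tested members fell and 4 rose (56.8% and 10.8%), with a median log2 fold change of -0.68. PRKCA, protein kinase C alpha, had 88.5, 105 and 95.7 CPM at 6 h, against 225, 229 and 216 CPM untreated (-1.21 ± 0.06, adjusted p = 9.62e-15), and the Rac activator gene DOCK1 fell by 0.75 on the log2 scale. Among transcription and RNA factors 12 of 24 fell and 3 rose (50% and 12.5%), with a median of -0.48, though RUNX1, a Runt-domain factor of blood and bone, rose by 0.29 ± 0.06. Of channels, receptors and transport proteins 15 of 35 fell and 5 rose (42.9% and 14.3%). ADGRL2, the adhesion receptor latrophilin 2, had 41.5, 41.5 and 43.5 CPM at 6 h, against 108, 118 and 104 CPM untreated (-1.38 ± 0.07, adjusted p = 5.42e-14). Transcripts that cross at least 50% of ADGRL2 held only 0.999% of its counts at 6 h and 0.774% untreated.

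Cytoskeletal, scaffold and junction proteins had 11 falling and 6 rising of 27 (40.7% and 22.2%). Next to the fall of UTRN stood rises of LPP, a focal adhesion protein, by 0.53 ± 0.06 and of SYNE1, the nuclear envelope spectrin nesprin-1, by 1.23 ± 0.08. Of neural adhesion and guidance genes 11 of 39 fell and 8 rose, and both shares (28.2% and 20.5%) were below those of all genes tested, with a median of -0.25. The teneurins, large transmembrane adhesion proteins, went both ways: TENM2, the member with the most reads, had 371, 403 and 363 CPM at 6 h, against 462, 449.5 and 464 CPM untreated (-0.28 ± 0.07, adjusted p = 0.00148). TENM3 had 356, 322 and 323 CPM at 6 h, against 243, 259 and 239 CPM untreated (0.44 ± 0.07, adjusted p = 4.41e-06), so neither teneurin's groups overlapped. Of enzymes and genome maintenance proteins 7 of 22 fell and 4 rose, and the falling share of 31.8% was near that of all genes tested. Of the 92 tested members on no role list 40 fell and 13 rose (43.5% and 14.1%).

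Some of the most abundant members did not pass the test at 6 h. NTM, an adhesion protein of the same family as LSAMP with the highest mean TPM, had 107, 111 and 99.5 CPM at 6 h, against 99.7, 88.3 and 102 CPM untreated (0.13 ± 0.07, adjusted p = 0.105). On the TPM scale, where its short most abundant transcript of 436 bases weighs heavily, NTM had 85.03, 102 and 73.5 TPM at 6 h, against 166, 136 and 145 TPM untreated, without overlap. CAMTA1, a calmodulin-binding transcription activator, had a log2 fold change of 0.08 ± 0.09, adjusted p = 0.437 and PTPRG, a receptor phosphatase, one of 0.01 ± 0.06, adjusted p = 0.858.

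Medians at 6 h followed gene span over all protein-coding genes, also below the limit of 500000 bases. The median log2 fold change was 0.02 for genes under 5000 bases, 0.10 for 10000 to 20000, -0.05 for 50000 to 100000, -0.23 for 100000 to 200000, -0.30 for 200000 to 300000 and -0.47 for 300000 to 500000. Members of 500000 to 1000000 bases had a median of -0.41 (219 tested), and those of 1000000 bases or more -0.15 (57 tested). The fall with span thus did not continue past the limit, and among the longest 57 members 14 fell and 8 rose (24.6% and 14.0%), both below the 33.3% and 31.6% of all genes tested. Those 57 were low, at a median of 6.03 CPM, and few low genes can be called. At a mean of 5 CPM or more these 2 classes had medians of -0.37 (130 tested) and -0.22 (30 tested). Of the 30, 13 fell and 5 rose (43.3% and 16.7%). At that level 33.9% of genes spanning 20000 to 50000 bases fell and 41.3% rose. Just outside the limit, RPS6KA2, DIAPH3 and CACNA2D1 (497088 to 498405 bases) had log2 fold changes of -1.21, -1.21 and -0.07, and just inside it AFF2, SPOCK3 and KCNAB1 (500045 to 501438 bases) had -0.35, 0.67 and 2.87.

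**Figure D4:**
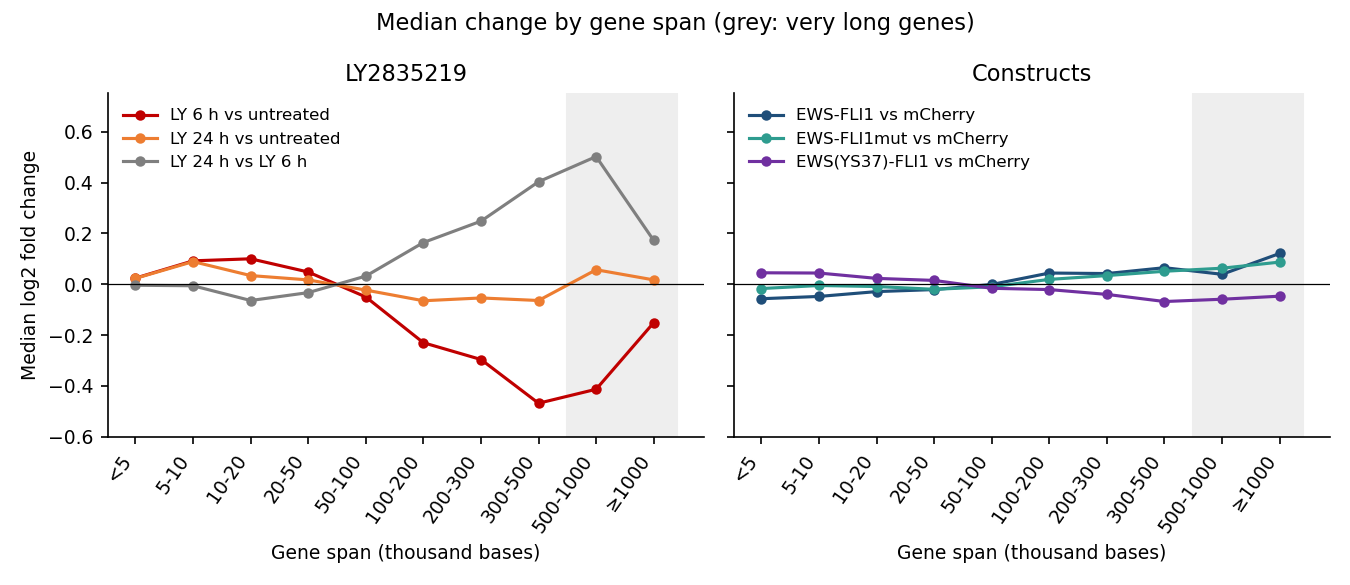
Median log2 fold change of tested protein-coding genes by gene span (kb) under LY2835219 (left) and for each construct against mCherry (right), with very long genes shaded grey. At 6 h the median is -0.47 for 300000 to 500000 bases and -0.41 and -0.15 in the 2 classes of very long genes, whereas at 24 h against untreated cells it is 0.06 and 0.02 there.

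Within the members, the extent of the most abundant transcript did not order the change. Medians at 6 h were -0.37 where it covered under 100000 bases (69 tested), -0.43 for 100000 to 500000 (88 tested) and -0.28 for 500000 or more (119 tested). Falling and rising members differed in other features. The 117 that fell had a median of 15.3 CPM and a most abundant transcript of 3518 bases with 15 exons, the 43 that rose 10.3 CPM and 2307 bases with 9 exons, and the 116 not called 2.55 CPM and 1339 bases with 6 exons. Level sets how easily a gene is called, and its part in these differences was not tested.

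Level and mature length were therefore held in classes. By mature length, members had lower medians than short genes in each of 4 classes: -0.29 against 0.12 under 2000 bases, -0.48 against -0.015 from 2000 to 4000, -0.45 against -0.004 from 4000 to 6000 and -0.40 against -0.05 at 6000 or more. By level the difference was uneven. Members had a median of -0.43 and short genes 0.16 at 20 to 100 CPM, and -0.28 and 0.39 at 100 CPM or more. At 5 to 20 CPM the medians were close, at -0.28 for members and -0.21 for short genes, and there 44.6% of members and 43.5% of short genes fell. At 1 to 5 CPM they were -0.44 and -0.21, and under 1 CPM -0.20 and close to 0. Much of the contrast with short genes thus lay among abundant genes, where short genes rose, and the part of expression level in it was not tested.

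**Figure D5:**
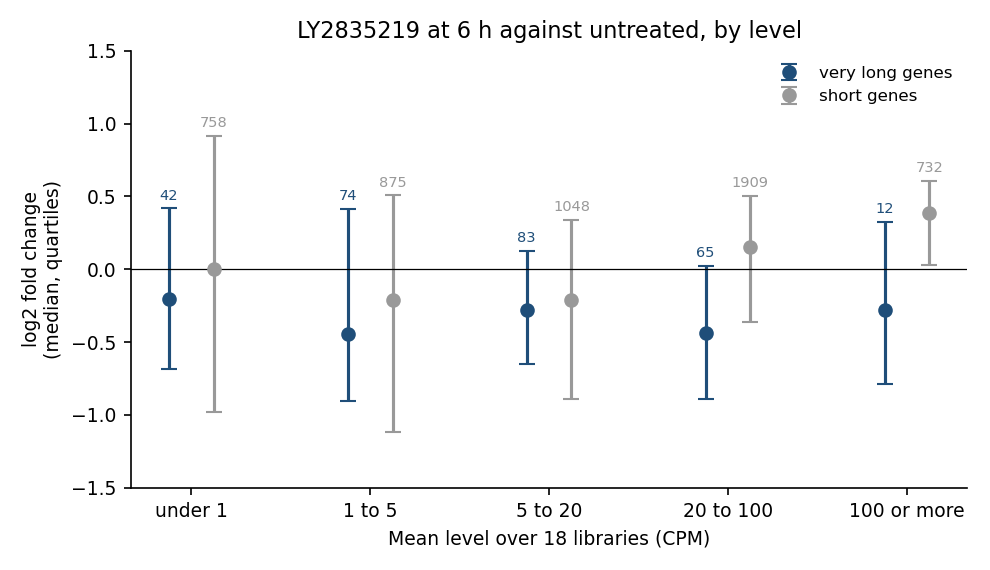
Log2 fold change at 6 h of LY2835219 against untreated EWS-FLI1 cells for very long genes (blue) and short genes (grey) in classes of mean CPM over 18 libraries, with points at the median, bars over the quartiles and the number of genes tested above each bar. The medians are -0.43 and 0.16 at 20 to 100 CPM but -0.28 and -0.21 at 5 to 20 CPM.

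At 24 h rises and falls were about equal in number over all tested members, though not at each level. Against untreated EWS-FLI1 cells, 69 members rose and 64 fell of 276, or 25% and 23.2%, where 23.3% of all genes tested rose and 24.6% fell (48.0% in either direction), and the median was 0.05 for members and for short genes alike. On the log2(TPM + 1) scale limma called 66 of 212 members in place of 133, 23 rising and 43 falling. The share of all genes it called is not given. At 100 CPM or more 0 of 12 members rose and 9 fell (median -0.48), where 36.5% of short genes rose and 35.8% fell (median 0.006). At 20 to 100 CPM 19 of 65 members rose and 24 fell (29.2% and 36.9%), where 29.9% of short genes rose and 27.4% fell. Under 1 CPM 9 of 42 members rose and 0 fell, where 7.52% of short genes rose and 7.26% fell. The part of level in this was not tested. The comparisons at 6 h and at 24 h share the untreated libraries, so their values are only set side by side. Tested directly, 24 h against 6 h, 120 members rose and 39 fell (43.5% and 14.1%), where 32.6% of all genes tested rose and 30.3% fell (62.9% together). With no scaling factors 150 members rose and 26 fell, and the shares of all genes under that setting are not given. Every 24 h library was above every 6 h library in 134 members and below in 42, where the same held for 34.2% and 32.1% of all genes tested. The median was 0.40 for members and -0.03 for short genes, 0.50 for spans of 500000 to 1000000 bases and 0.17 beyond.

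The gap between very long and short genes gave the same picture per library. It was taken as the median deviation of the members' log2 CPM from each gene's mean over all 18 libraries, minus the same for short genes. It was 0.16, 0.10 and 0.07 in untreated EWS-FLI1 libraries, -0.27, -0.26 and -0.26 at 6 h, and 0.19, 0.04 and 0.17 at 24 h. The 6 h libraries stood apart from all others, while the 24 h libraries overlapped the untreated ones.

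Individual members took different courses. PRKD1 had 20.8, 17.4 and 22.0 CPM untreated, 3.85, 3.41 and 0.807 at 6 h and 17.0, 16.2 and 17.9 at 24 h, so the 24 h libraries were close to the untreated ones and above all 6 h libraries (2.66 ± 0.25, adjusted p = 2.31e-09 for 24 h against 6 h). KALRN, encoding the dendritic spine protein kalirin, had 18.7, 22.5 and 20.4 CPM untreated, 8.13, 8.08 and 8.32 at 6 h and 29.1, 30.8 and 31.3 at 24 h (1.89 ± 0.10, adjusted p = 6.20e-14). ANK2, encoding ankyrin-B, had 5.62, 7.24 and 8.11 CPM untreated, 3.61, 4.48 and 4.10 at 6 h and 31.8, 25.3 and 25.9 at 24 h (2.77 ± 0.16, adjusted p = 4.03e-13). For both genes the 24 h libraries lay above all untreated libraries and the 6 h libraries below them. MECOM, a zinc finger transcription factor of blood stem cells, had a log2 fold change of 1.85 ± 0.11, adjusted p = 1.17e-12 for 24 h against 6 h.

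Among members at 5 CPM or more, the largest rises at 24 h against untreated cells were those of CELF2, EPHB1 and SPOCK1. CELF2, an RNA-binding splicing regulator, had 2.91, 2.89 and 3.81 CPM untreated, 6.12, 3.47 and 4.59 at 6 h and 35.0, 30.6 and 26.9 at 24 h, a log2 fold change of 3.27 ± 0.22, adjusted p = 1.75e-11 at 24 h against untreated cells. SPOCK1, the proteoglycan testican-1, had 24.7, 22.7 and 22.7 CPM untreated, 35.2, 36.7 and 38.7 at 6 h and 111, 142 and 119 at 24 h (2.40 ± 0.11, adjusted p = 1.07e-14). The ephrin receptor gene EPHB1 had 3.42, 2.41 and 1.29 CPM untreated, 4.16, 3.41 and 3.79 at 6 h and 15.9, 13.3 and 12.6 at 24 h (2.54 ± 0.27, adjusted p = 4.92e-08). In these genes the 24 h libraries were several times the 6 h ones. The receptor phosphatase gene PTPRM, the adhesion gene OPCML and the sushi-domain gene CSMD3 were also higher at 24 h than untreated, by 1.38 ± 0.09, 2.05 ± 0.31 and 1.35 ± 0.21. HDAC9 had 73.3, 63.9 and 75.7 CPM at 24 h, and its difference from 6 h did not pass the test (-0.20 ± 0.12, adjusted p = 0.167).

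The sharpest falls at 24 h included genes that had also fallen at 6 h and TENM4, which had not passed the test there. PDE4B and EGLN3 had log2 fold changes of -1.80 ± 0.21, adjusted p = 2.37e-07 and -1.71 ± 0.27, adjusted p = 1.41e-05 at 24 h against untreated cells. PRKCA had 225, 229 and 216 CPM untreated, 88.5, 105 and 95.7 at 6 h and 85.01, 85.9 and 82.7 at 24 h (-1.40 ± 0.06, adjusted p = 3.00e-15 at 24 h against untreated). DLC1, known as a tumour suppressor, had 63.7, 62.8 and 58.2 CPM untreated, 42.5, 49.5 and 50.7 at 6 h and 22.4, 19.8 and 16.6 at 24 h (-1.65 ± 0.12, adjusted p = 9.28e-11). TENM4, a further teneurin, did not pass at 6 h (-0.25 ± 0.17, adjusted p = 0.211) and fell at 24 h (-1.54 ± 0.18, adjusted p = 2.08e-07). PTPRN2, a phosphatase-like protein of secretory granules, and the calmodulin-dependent phosphodiesterase gene PDE1C fell at 24 h against untreated cells by 1.27 and 1.18 on the log2 scale.

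Several genes that were high at 6 h came down between the times. KCNAB1 had 2.71, 3.03 and 2.64 CPM at 24 h, against 10.5, 8.71 and 9.43 CPM at 6 h (-1.77 ± 0.32, adjusted p = 3.57e-05). CREB5 had 123, 118 and 131 CPM at 24 h, against 294, 317 and 324 CPM at 6 h (-1.33 ± 0.07, adjusted p = 1.35e-13). The muscarinic receptor gene CHRM3 had 3.13, 5.06 and 3.06 CPM at 24 h, against 10.3, 9.41 and 9.43 CPM at 6 h (-1.37 ± 0.21, adjusted p = 3.34e-06). At 24 h CREB5 was near its untreated level. SLIT3, NAV3 and the secreted bone-forming factor gene NELL1 were lower at 24 h than at 6 h by 1.30, 1.28 and 1.26 on the log2 scale.

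Many members have transcripts that cross most of the gene and others that cover a small piece of it, and the change was also measured between these. The counts of transcripts whose extent was at least 50% of the gene's span were therefore set against those of the gene's shorter transcripts, and the log2 ratio was tested with limma in genes with enough counts in both. Among 135 members at 6 h against untreated cells, 7 rose and 7 fell (5.19% each), where 4.14% of 7176 genes rose and 14.4% fell (18.5% together). The median change was -0.12 for members, -0.18 for 1978 short genes and -0.27 over all genes tested. The members' median was thus nearer to 0 than that of all genes. Reads shared between transcripts of a gene are divided by kallisto's model, so these ratios carry its error as well.

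DENND1A, an activator of the endosomal GTPase RAB35, changed most among the members that fell in this ratio. Long-span transcripts made up 71.0%, 71.7% and 64.6% of its counts at 6 h, against 93.8%, 92.3% and 90.6% untreated (log2 ratio change -2.40 ± 0.37, SE; adjusted p = 0.000519, limma). MECOM had 10.9%, 13.1% and 5.67% at 6 h, against 26.9%, 38.5% and 27.4% untreated, and the potassium channel gene KCNMA1 had 49.5%, 51.2% and 43.7% at 6 h, against 64.6%, 77.3% and 78.1% untreated. The adhesion receptor gene ADGRV1 had 24.4%, 25.7% and 41.7% at 6 h, against 48.7%, 59.6% and 63.4% untreated. The groups of these 4 genes did not overlap. In the other direction ANK3, encoding ankyrin-G, had 90.5%, 78.5% and 76.2% at 6 h, against 57.3%, 50.7% and 49.2% untreated (2.04 ± 0.41, SE; adjusted p = 0.00342, limma). UNC5D, NBEA and DNAH14, a netrin receptor, a vesicle trafficking protein and an axonemal dynein, also had larger long-span shares at 6 h. For UNC5D all 3 libraries at 6 h listed 100%. Mean long-span counts were not higher at 6 h in UNC5D (58.0, against 60.2 untreated), NBEA (86.6, against 185) and ANK3 (67.7, against 97.5). In DNAH14 they were (45.5, against 39.3). Mean short-span counts were 0 at 6 h, against 26.8 untreated, in UNC5D, and 1.33, against 43.6, in NBEA. At such low counts the ratio depends on the 1 added to each count.

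At 24 h against untreated cells 3 members rose and 2 fell in this ratio, where 0.418% of genes rose and 1.17% fell (1.59% together). ANK3 still had 77.2%, 80.4% and 79.4% at 24 h, against 57.3%, 50.7% and 49.2% untreated, and the fragile-site gene WWOX had 65.2%, 69.7% and 62.6% at 24 h, against 47.4%, 53.4% and 43.5% untreated. Their adjusted p were 0.0494 and 0.0305 (limma), and leaving out any 1 library of either group gave 0 to 2 calls in place of 5. For 24 h against 6 h, 4 rose and 5 fell, where 7.62% of genes rose and 3.92% fell (11.5% together). DENND1A came back to 82.7%, 89.0% and 87.1% at 24 h, and HDAC9 went to 15.7%, 14.1% and 14.6% at 24 h, against 29.1%, 24.4% and 21.8% at 6 h. The number called was 4 without replicate 3 of the 6 h group and 5 without replicate 2 of the 24 h group, against 9 with all libraries.

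Among RNAs of the pause release and elongation machinery the share that rose at 6 h was above that of all genes. Of 57 listed factors 55 were tested, and at 6 h against untreated cells 28 rose and 19 fell, or 50.9% and 34.5%. Over all genes tested 31.6% rose and 33.3% fell, so the falling share was near that of all genes. The factors were abundant, at a median of 84.6 CPM, against 19.2 CPM over all genes tested. Among short genes 46.9% rose at 20 to 100 CPM and 70.5% at 100 CPM or more. The rising share of the factors lay between these shares of short genes, and the part of level was not tested. HEXIM1, the inhibitor that holds P-TEFb in its inactive complex, averaged 19.6 ± 1.80 CPM at 6 h, against 126 ± 3.89 CPM untreated (SD, n = 3 each; log2 fold change -2.68 ± 0.07, SE). CDK9, the kinase of P-TEFb, named here after its values were seen, averaged 169 ± 0.846 CPM at 6 h, against 69.0 ± 1.85 CPM untreated (1.29 ± 0.06). MLLT3, a subunit of the super elongation complex, averaged 0.991 ± 0.258 CPM at 6 h, against 7.81 ± 0.242 CPM untreated. MEPCE, which caps the 7SK RNA of the inactive P-TEFb complex, averaged 35.2 ± 1.79 CPM at 6 h, against 128 ± 12.5 CPM untreated. At 24 h against untreated cells 11 factors rose and 17 fell (20% and 30.9%), where 23.3% and 24.6% of all genes tested did. HEXIM1 averaged 37.2 ± 1.24 CPM and CDK9 76.4 ± 5.10 CPM at 24 h. Their part in the members' changes was not tested.

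Fewer members were called between the constructs. In untreated EWS-FLI1 cells 42 members rose and 16 fell against mCherry cells (15.2% and 5.8%), where 11.1% of all genes tested rose and 9.95% fell (21.1% together). Of the 212 members tested on the log2(TPM + 1) scale limma called 14 in place of 58, 10 rising and 4 falling. For that scale no share of all genes is given. The fitted log2 fold changes had medians of 0.06 for members and -0.04 for short genes. CDK14, a cyclin Y-dependent kinase, had 296, 281 and 284 CPM in EWS-FLI1 cells, against 150.4, 175 and 162 CPM in mCherry cells (0.82 ± 0.05, adjusted p = 2.33e-10). CLSTN2, a synaptic calsyntenin, had 15.7, 12.3 and 13.4 CPM in EWS-FLI1 cells, against 6.33, 7.80 and 6.35 CPM in mCherry cells (1.02 ± 0.15, adjusted p = 2.41e-05). The adhesion genes NCAM2 and CSMD2 also rose, and of neural adhesion and guidance genes 8 of 39 rose (20.5%) and 0 fell. RIMS2, a presynaptic scaffold, had 4.09, 2.94 and 4.57 CPM in EWS-FLI1 cells, against 8.28, 6.34 and 7.26 CPM in mCherry cells (-0.92 ± 0.21, adjusted p = 0.00294). CELF2, ANK2 and the recombination gene RAD51B were lower in EWS-FLI1 cells than in mCherry cells, by 0.85, 0.66 and 0.74 on the log2 scale.

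In EWS-FLI1mut cells 20 members rose and 9 fell against mCherry cells (7.25% and 3.26%), where 3.53% of all genes tested rose and 3.62% fell (7.15% together). With limma on log2(TPM + 1) 6 of 212 were called in place of 29, all rising, with no share of all genes given. TTC28, a tetratricopeptide repeat protein, had 73.9, 74.2 and 83.3 CPM in EWS-FLI1mut cells, against 40.2, 42.8 and 38.8 CPM in mCherry cells (0.93 ± 0.08, adjusted p = 1.34e-07). PRKG1, the cyclic GMP-dependent kinase, had 13.1, 13.8 and 13.3 CPM in EWS-FLI1mut cells, against 6.54, 7.13 and 6.88 CPM in mCherry cells (0.97 ± 0.14, adjusted p = 0.000102). CHRM3 and the sortilin-family receptor gene SORCS1 rose by 1.21 ± 0.21 and 1.08 ± 0.21. NTM had 78.0, 72.8 and 76.9 CPM in EWS-FLI1mut cells, against 96.7, 102 and 107 CPM in mCherry cells (-0.43 ± 0.07, adjusted p = 0.000488), and ANK2, MCTP1 and KIRREL3 also fell. The count of calls fell to 17 without EWS-FLI1mut replicate 1 and to 18 without EWS-FLI1mut replicate 3, against 29 with all libraries.

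In EWS(YS37)-FLI1 cells rises and falls were about equal in number. Against mCherry cells 31 members rose and 37 fell (11.2% and 13.4%), where 11.5% of all genes tested rose and 10.2% fell (21.7% together). By a most abundant transcript of 500000 bases or more 17 rose and 16 fell. With limma on log2(TPM + 1) 28 of 212 members were called in place of 68, 10 rising and 18 falling, with no share of all genes given. The fitted log2 fold changes had medians of -0.06 for members and 0.04 for short genes. Of transcription and RNA factors 11 of 24 tested members fell (45.8%) and 1 rose. RUNX1 had 135, 112 and 129 CPM in EWS(YS37)-FLI1 cells, against 192, 194 and 196.1 CPM in mCherry cells (-0.63 ± 0.06, adjusted p = 2.39e-08). AFF3, a nuclear protein of the AF4 family, had 18.3, 15.1 and 15.7 CPM in EWS(YS37)-FLI1 cells, against 31.7, 31.9 and 31.9 CPM in mCherry cells (-0.96 ± 0.09, adjusted p = 5.81e-08). SOX5, a relative of SOX6, had 4.60, 5.11 and 5.90 CPM in EWS(YS37)-FLI1 cells, against 10.5, 12.3 and 13.5 CPM in mCherry cells (-1.21 ± 0.17, adjusted p = 8.72e-06). The fold change of SOX5 was the largest in size of these 3.

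Adhesion receptors and signalling proteins changed in these cells too. ADGRL3, latrophilin 3, had 14.7, 11.8 and 13.5 CPM in EWS(YS37)-FLI1 cells, against 34.6, 40.1 and 40.3 CPM in mCherry cells (-1.52 ± 0.12, adjusted p = 1.37e-09). PRKCE, protein kinase C epsilon, had 41.9, 44.3 and 44.4 CPM in EWS(YS37)-FLI1 cells, against 21.6, 19.98 and 18.3 CPM in mCherry cells (1.13 ± 0.10, adjusted p = 1.72e-08). ADAMTSL1, a matrix protein, had 18.2, 21.0 and 22.3 CPM in EWS(YS37)-FLI1 cells, against 9.38, 6.70 and 6.30 CPM in mCherry cells (1.46 ± 0.16, adjusted p = 3.64e-07). RGS7, a regulator of G protein signalling, and CSMD2 also rose, by 1.44 ± 0.21 and 1.38 ± 0.16, and the netrin receptor gene UNC5D fell by 1.08. The 3 construct comparisons share the mCherry libraries, so their values are not set against each other.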

How the data were processed

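PolyA RNA of 18 U2OS libraries was sequenced and, per the submitters' processing notes, handled with CASAVA and kallisto 0.46 on hg38. The transcript set, index options and strandedness are not given in the sources used here. The deposited tables hold, per the file headers, the authors' estimated counts, TPM and effective length for each of 188753 transcripts, 169797 of which matched GENCODE 29 by Ensembl ID. These estimated counts were added up over the transcripts of a gene, then rounded to whole numbers. Transcripts without a match held 2.59 to 2.74% of counts and were left out. Library totals were 16261034 to 20270637, and intervals of counting error were not used.

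Genes passing filterByExpr (16786) were fitted in 1 edgeR quasi-likelihood model over all 18 libraries with TMM factors (R 4.3.3, edgeR 4.0.16, limma 3.58.1; 12 residual degrees of freedom, biological coefficient of variation 8.77%). A gene was called at an adjusted p under 0.05, Benjamini-Hochberg over all genes tested. The SE of a log2 fold change was its size over the root of the F statistic. CPM values are TMM-scaled. The transcript ratio was tested with limma-trend on counts plus 1, for genes with at least 10 counts on average in transcripts spanning at least 50% of the gene and in shorter ones. The scripts were tested on simulated data. Alternatives were other scaling factors, filters and span limits, DESeq2 1.42.0, limma on log2(TPM + 1) and log2(TPM + 0.1), a replicate block, and leaving out each library. Counts of members under an alternative show how calls depend on processing, since the shares of all genes under it are not given.

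The members and lists were chosen with earlier results of these data known. Named members were the 8 rising and 8 falling (4 and 4 between constructs) with the largest fold changes among those called, at 5 CPM or more in the higher group and without overlap between libraries. Also named were the 10 with the highest TPM, up to 4 per role list by CPM, the 3 genes on each side of the span limit, the 3 longest, up to 4 per direction in the ratio test and up to 4 elongation factors per comparison. Role lists came from general knowledge. Some genes that these rules name are not reported here.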

Additional observations from a re-analysis of the deposited data

Results flagged for a closer look

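Of 275 tested members reported here, 16 averaged at least 5 CPM in 1 of the groups and were called in opposite directions at 6 h and at 24 h of LY2835219 against the same untreated EWS-FLI1 libraries, a share of 5.82%, against 7.88% (1322) of all 16786 genes tested. The genes were chosen for this pattern, so the values of 24 h against 6 h describe it and do not test it. Those outside the rule for named genes were chosen after their values were seen. For 13 of them the 6 h mean was below and the 24 h mean above the untreated mean. The log2 fold change of 24 h against 6 h was 2.77 for ANK2, 1.89 for KALRN, 1.85 for MECOM, 1.71 for PRKCE, 1.69 for RGS7, 1.49 for TSHZ2 (a zinc finger transcription factor), 1.41 for MDGA2 (a synaptic adhesion regulator) and 1.23 for GPHN (gephyrin, the scaffold of inhibitory synapses). It was 0.93 for GRID1, 0.92 for ADK (adenosine kinase), 0.90 for DIAPH2 (a formin), 0.84 for TBC1D5 (a RAB GTPase-activating protein) and 0.64 for VPS13B (a lipid transfer protein of the Golgi). TBC1D5 had a mean of 64.3 CPM untreated, 53.0 CPM at 6 h and 94.6 CPM at 24 h, and GPHN 44.6, 24.6 and 57.8 CPM. The remaining 3 were higher at 6 h and lower at 24 h than untreated, with -1.26 for NELL1, -0.71 for FRMD4A (a polarity scaffold) and -0.63 for TENM3.

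The gap between very long and short genes was above every mCherry library in all 3 EWS-FLI1 libraries and all 3 EWS-FLI1mut libraries, and below every mCherry library in all 3 EWS(YS37)-FLI1 libraries. The group means differed by 0.188 on the log2 scale, EWS-FLI1 minus EWS(YS37)-FLI1, and by 0.177, EWS-FLI1mut minus EWS(YS37)-FLI1. These differences were not tested.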

How the results depend on the processing

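The very long minus short gap kept its sign under every alternative run in 5 of the 6 comparisons. At 24 h against untreated cells, where it was 0.005, it ranged from -0.069 (span of 300000 bases or more) to above 0, and rises outnumbered falls or the reverse depending on the setting. In EWS(YS37)-FLI1 cells 31 rising and 37 falling became 17 rising and 16 falling by most abundant transcript. Of the counts of called members, 92 values stayed within 1.5 times and 28 did not. Of the very long minus short gaps in median log2 fold change, 133 moved by less than the spread between libraries and 11 by more. The causes were not tested except that another span limit changes how many genes can be called. At 6 h against untreated cells 160 members were called, 441 with a limit of 300000 bases, 22 with 1000000 and 74 with a most abundant transcript of 500000 bases or more. Its gap of -0.432 became -0.303 on log2(TPM + 1), -0.5, -0.235 and -0.364 under those 3 limits and -0.491 at 5 CPM or more. At 24 h against untreated cells 133 calls became 66 and 64 on log2(TPM + 1) and log2(TPM + 0.1), and 376, 27 and 62 under the 3 limits. At 24 h against 6 h 159 calls became 431, 25 and 77, and the gap of 0.43 became 0.263 on log2(TPM + 1), 0.206 from 1000000 bases and 0.534 by most abundant transcript. For EWS-FLI1 against mCherry 58 calls became 14 on both TPM scales and 175, 12 and 29 under the limits. For EWS-FLI1mut 29 calls became 6, 5, 73, 3 and 15, and the gap of 0.078 became 0.027 on log2(TPM + 1) and 0.008 with most abundant transcripts of 3000 bases or longer. For EWS(YS37)-FLI1 68 calls became 28, 27, 194, 12 and 33. Ratio calls at 24 h against untreated cells (5) became 9 with 30 counts per class and 0 with transcripts of 100000 bases or more against shorter ones. Leaving out 1 library gave 143 to 149 calls and gaps of -0.485 to -0.395 at 6 h, 108 to 117 and -0.045 to 0.031 at 24 h, 145 to 159 and 0.359 to 0.459 for 24 h against 6 h, 48 to 57 and 0.072 to 0.141 for EWS-FLI1, 17 to 23 and 0.058 to 0.093 for EWS-FLI1mut, and 53 to 68 and -0.136 to -0.063 for EWS(YS37)-FLI1. The low ends for EWS-FLI1mut were 17 without its replicate 1 and 18 without its replicate 3. Ratio calls were 12 to 14 at 6 h, 0 to 2 at 24 h and 4 to 9 for 24 h against 6 h, where the lowest were 4 without 6 h replicate 3 and 5 without 24 h replicate 2. Deviations of same-numbered libraries had correlations of -0.038 to 0.062, and no pairing was used. For EWS-FLI1mut against mCherry the same-numbered ones had 0.041 to 0.062 and the others -0.041 to -0.019, and whether numbers pair these libraries was not tested. With a replicate block the calls were 161, 132, 158, 58, 28 and 72 in the 6 comparisons, and ratio calls 13, 2 and 9. DESeq2 called 154, 130, 152, 58, 32 and 69. Median shifts of all genes without scaling factors were -0.258 at 6 h and 0.299 for 24 h against 6 h. At a mean under 1 CPM 6 of 42 members were called at 6 h (4.76% rising and 9.52% falling), where 14.8% of short genes rose and 13.7% fell. The part of depth in this was not tested.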
